A study of Mus musculus with 36 samples.

Results

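The genes described here carry cargo along the primary cilium and pass on the Hedgehog signal that depends on it. They were taken from the deposited expression table by symbol: every Ift or Bbs symbol followed by a number alone, plus Dync2h1, Dync2li1, Arl13b, Ttc21b, Wdr19, Wdr35, Tulp3, Gpr161, Smo, Ptch1, Gli1, Gli2 and Gli3. The rule uses no measured value and found 35 of 19909 genes. By role they were 11 genes of intraflagellar transport complex B (IFT-B), 6 of complex A (IFT-A), 2 of the retrograde motor, 6 of the BBSome, 2 of its assembly chaperonin, 3 ciliary membrane and Hedgehog modulators, 2 Hedgehog receptors and 3 GLI transcription factors.

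RNA came from C57BL/6 mice aged 8 weeks, with no transgene or deletion named in the labels. From homogenized subependymal zone (SEZ), the neurogenic niche along the lateral ventricles, 8 populations were sorted by FACS: qNSC, pNSC, aNSC and NPC1 with 4 libraries each, and NPC2, NB1, NB2 and Other with 3 each. The labels do not spell these names out. In this field NSC stands for neural stem cell (q quiescent, a activated), NPC for progenitor cell and NB for neuroblast. From passage 4 neurospheres, grown with EGF and FGF, DFFDA_H and DFFDA_L were sorted (4 libraries each) after loading with 2 ug/ml of the cell dye DFFDA and 4 days of culture, and the design text says that they proliferate at different rates. The labels call the libraries biological replicates but name no animals or cultures, so p-values cover only the spread among libraries, which may be technical. No source used here gives the sorting gates.

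Most neural stem and progenitor cells bear a single immotile primary cilium. Kinesin-driven IFT-B trains carry cargo to its tip, the dynein-2 motor with IFT-A brings it back, and the BBSome moves membrane receptors out of it. Without Hedgehog ligand the receptor PTCH1 keeps SMO out of the cilium and the ciliary receptor GPR161 favours the repressor form of GLI3. With ligand, SMO enters and GLI2 and GLI3 become activators, with Gli1 and Ptch1 as usual target genes. In the SEZ, Hedgehog signalling is known to act on stem cells.

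Each value is a deposited log2 expression value close to log2 CPM. The cells are bulk populations, so fewer cells of a type and less RNA per cell cannot be told apart. The values carry no library total, and each library has a floor value that its undetected genes share. The number of genes at the floor ran from 362 to 3932, and qNSC replicate 1 stood apart with the most genes at the floor and the highest floor, at -2.18. Bbs12 and Gpr161 were at the floor in that library. A called result against qNSC is therefore also given without it where that ended the call or moved the fold by over 1.5 times. In the labelled sequence, the summed level of 12 S phase and mitosis genes (2 raised to the log2 value) was 256 to 313 in qNSC, 7055 to 7825 in aNSC, 6747 to 7067 in NB1 and 1090 to 1155 in NB2. The 8 astroglia and stem cell markers summed to between 18310 and 19990 in qNSC and to between 140 and 155 in NB2, and the 8 neuroblast markers to between 181 and 314 in qNSC and to between 9598 and 10040 in NB2. Exons of 6 genes overlap another gene on the opposite strand (Bbs12, Bbs4, Gli1, Gli3, Ift57 and Ift88; build GRCm38), and the library kit does not mark strand, so their values may hold reads of that partner.

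Regulatory factor X (RFX) proteins are known to bind X-box motifs in promoters of cilium genes. Promoter sequences from RefSeq (GRCm38.p6, 250 bases before to 50 after each start) were found for 30 of the 35 genes (31 promoters), all but Dync2li1, Gli1, Ift122, Ift80 and Ift81. The X-box was searched as the half-sites GTTNCC and GGNAAC with 0 to 3 bases between them and at most 1 mismatch. The motif reads the same on both strands. A match was found in 6 genes (Bbs1, Bbs4, Bbs7, Ift22, Ift52 and Ift57), and 5.47% of 32544 distinct promoters held one. With no mismatch, Bbs7 and Ift57 matched, against 0.808% of all promoters. The GLI site TGGGTGGTC, searched on both strands, was in none of the 31 promoters and in 0.246% of all. The windows of Bbs7 (chr3:36613474-36613533, minus strand), Ift57 (chr16:49699211-49699262, plus strand) and Ift22 (chr5:136908094-136908153, plus strand) are shown because all 3 genes were called lower in NB2 than in qNSC, and that of Ift52 (chr2:163017323-163017381, plus strand) as 1 of the 3 matched genes, with Bbs1 and Bbs4, that were not called there. Capitals mark 1 match per window, and each window is written 5′ to 3′ on the gene's strand. The promoters of Ift22 and Ift57 each hold another match, with 1 mismatch, part of which stands in lower case at the start of the window.
Bbs7: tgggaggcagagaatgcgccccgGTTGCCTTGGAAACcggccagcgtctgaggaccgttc
Ift57: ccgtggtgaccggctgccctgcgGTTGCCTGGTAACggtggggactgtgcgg
Ift22: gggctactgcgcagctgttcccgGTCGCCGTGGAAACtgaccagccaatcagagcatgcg
Ift52: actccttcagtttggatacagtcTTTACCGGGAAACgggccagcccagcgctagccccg
A match is a run of letters and shows no binding, and a link to RFX levels was not tested. While 3 of the 6 matched genes were called lower in NB2 than in qNSC, so were 17 of the 35 genes and 5130 of 17788 genes tested. Among the 6 RFX genes in the table, Rfx4 fell from a mean log2 value of 7.42 ± 0.178 (SD, n = 4) in qNSC to 0.99 ± 0.272 (SD, n = 3) in NB2 and Rfx2 from 4.76 ± 0.547 to 0.79 ± 0.640, while Rfx7 rose from 4.54 ± 0.554 to 5.88 ± 0.304 (limma, adjusted p = 4.4e-15, 6.4e-08 and 1.9e-05).

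Across the 7 named fresh populations the means of the 3 GLI genes and Gpr161 lay farthest apart, followed by those of Bbs12, Bbs2, Smo, Ift57 and Ptch1. The difference between the highest and lowest population mean had a median of 1.23 on the log2 scale over the 35 genes and 1.98 over the 17788 genes tested. It was above that 1.98 for 9 genes (Gli1, Gli2, Gli3, Gpr161, Bbs12, Bbs2, Smo, Ift57 and Ptch1), which hold all 5 Hedgehog receptors and GLI factors and 2 of the 17 IFT-B and BBSome genes. The median by role was 1.03 for IFT-B, 1.09 for IFT-A, 0.97 for the motor, 1.47 for the BBSome, 2.41 for its chaperonin, 1.51 for the membrane modulators, 2.61 for the Hedgehog receptors and 5.60 for the GLI factors. The range of a gene with few reads also holds its counting noise. Per kilobase of exon, the highest mean log2 levels in qNSC were those of Ift27 (5.18) and Ift57 (5.13), and the lowest were those of Gpr161 (-2.50) and Bbs12 (-0.95). In NB2 the highest was Ift20 (4.87) and the lowest Gli1 (-5.28).

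**Figure D1:**
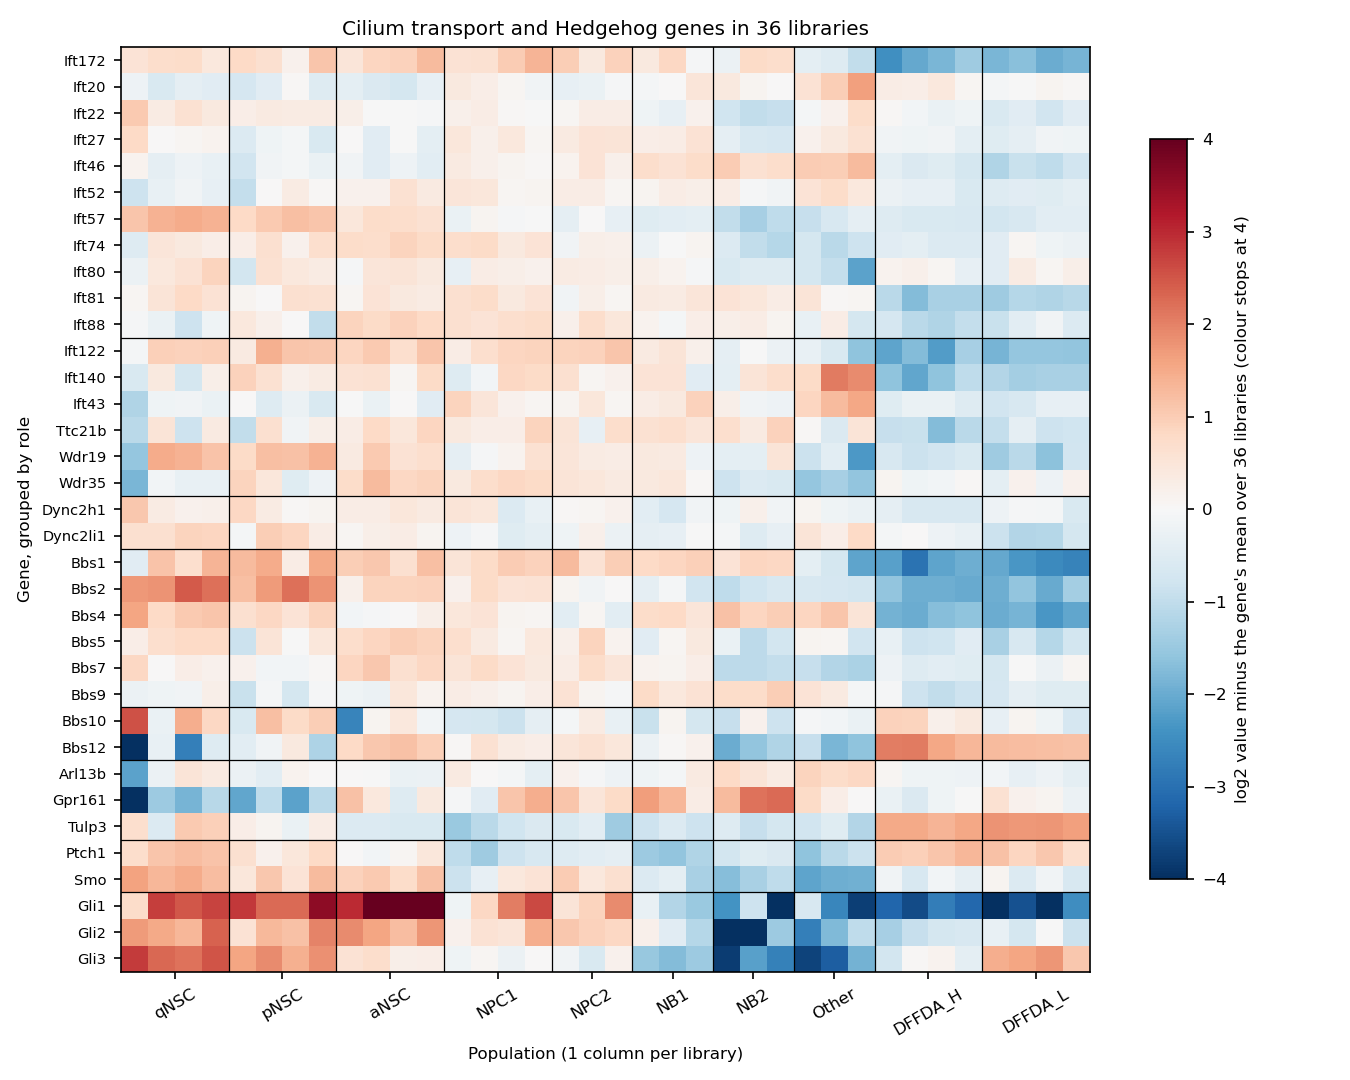
Log2 value of each of the 35 genes minus its mean over 36 libraries (colour, stopping at 4 either way), with 1 column per library grouped by population and rows grouped by role. The 3 GLI rows turn from red in qNSC and pNSC to blue in NB2, and in aNSC Gli1 and Gli2 are red and Gli3 is pale. The Gpr161 row goes from blue in qNSC to red in NB2, and most IFT rows stay pale in the fresh libraries.

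**Figure D2:**
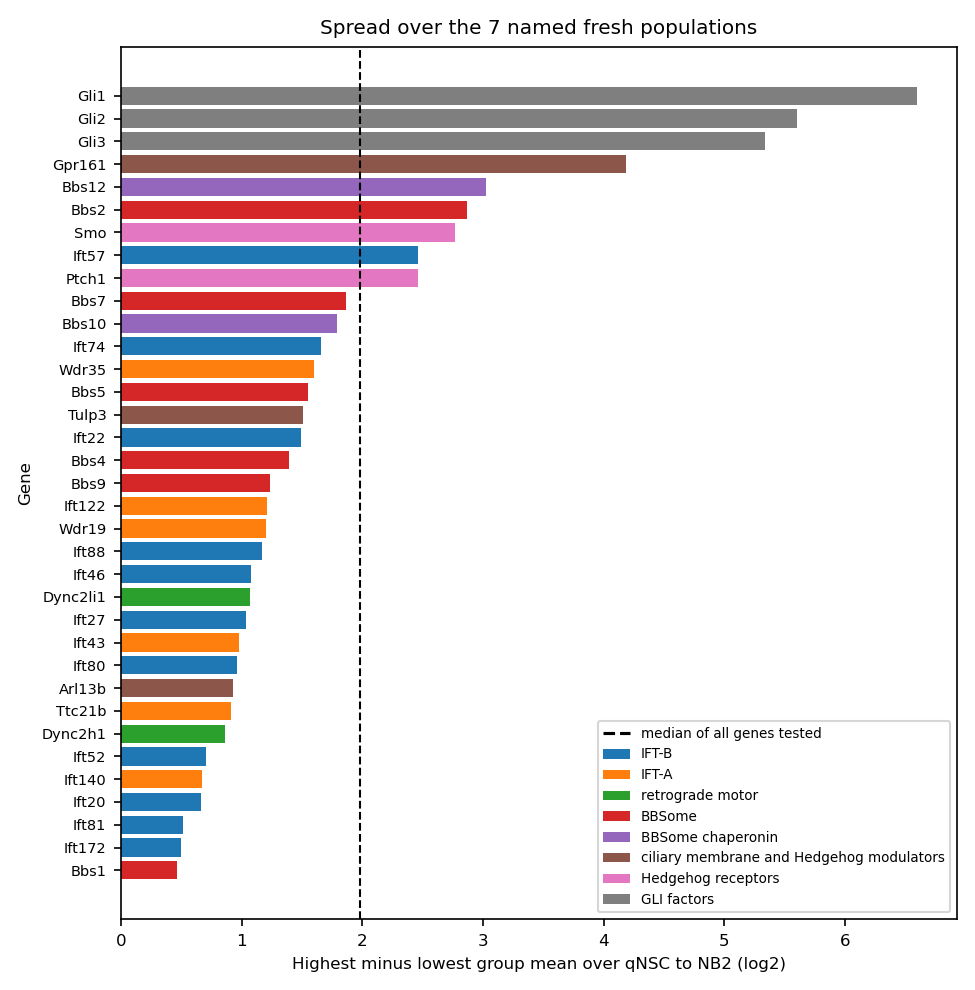
Highest minus lowest population mean (log2) over the 7 named fresh populations for each gene, coloured by role, with the median over all genes tested as a dashed line at 1.98. The 3 GLI factors head the order at 5.34 to 6.598, and 26 genes lie below the line.

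A gene is called here when limma's p, adjusted over all genes tested, is under 0.05. Among comparisons of the named populations, calls were fewest between NPC1 and NPC2 and most between qNSC and NB2. Between qNSC and pNSC 4 of the 35 genes were called (2 higher and 2 lower in pNSC), where 22.3% of all genes were. That count was 1 without qNSC replicate 1 or pNSC replicate 2, and 2 without qNSC replicate 3, pNSC replicate 1 or pNSC replicate 3. Between pNSC and aNSC 9 were called (5 higher, 4 lower), where 48.3% of all genes were. Between qNSC and aNSC 19 were called (9 higher, 10 lower in aNSC), or 15 without qNSC replicate 1, where 62.3% of all genes were. Between aNSC and NPC1 7 were called (3 higher, 4 lower), where 12.7% of all genes were. That count was 2 without NPC1 replicate 1, 3 without aNSC replicate 2 and 4 without NPC1 replicate 2. Between NPC1 and NPC2 limma called none, where 1.34% of all genes were called, and 6 genes had an unadjusted p under 0.05. Between NPC2 and NB1 4 were called (1 higher, 3 lower), where 7.67% of all genes were. Between NB1 and NB2 9 were called (1 higher, 8 lower), where 24.6% of all genes were. Between qNSC and NB2 23 were called (6 higher, 17 lower in NB2), or 21 without qNSC replicate 1, where 68.3% of all genes were. The median log2 change over the 35 was then -0.695, and over all genes 0.30. Comparisons that share a population share its libraries and are not independent. Between successive named populations and between qNSC and either aNSC or NB2, 28 of the 35 genes were called at least once. Those never called were Bbs1, Dync2h1, Ift140, Ift172, Ift43, Ift81 and Wdr19. How many of all genes were called at least once was not counted, so the 28 cannot be read against such a share. Between qNSC and NB2 alone, 68.3% of all genes were called.

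**Figure D3:**
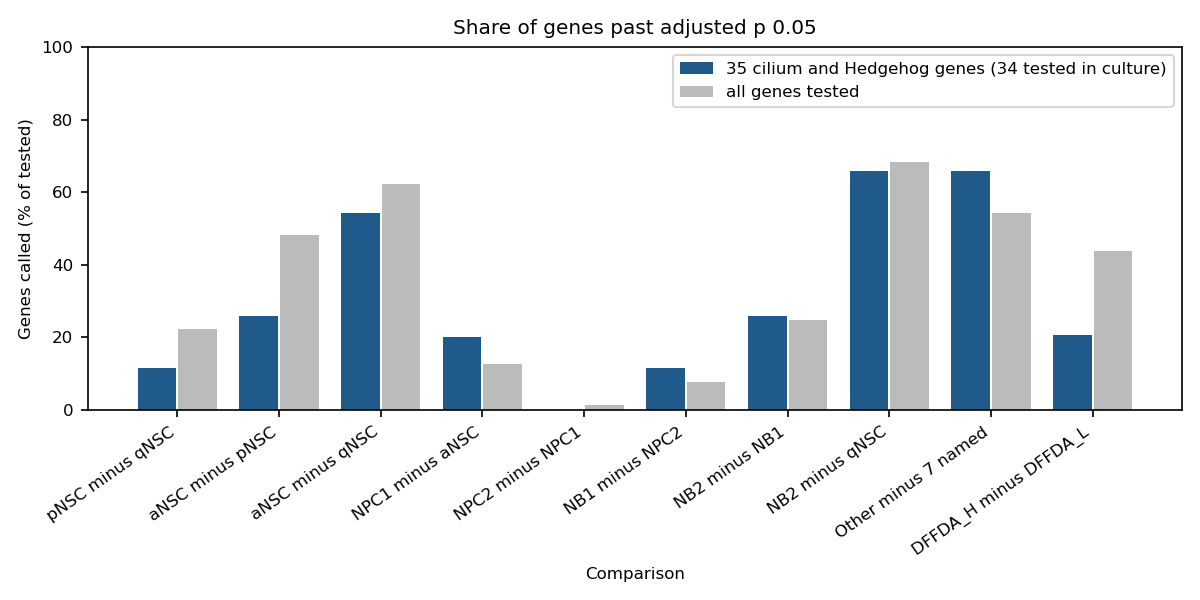
Share of genes (% of those tested) called at adjusted p under 0.05 in each comparison, for the 35 genes (blue; 34 in culture) and for all genes tested (grey). The blue bar is lower than the grey one by over 20 points between pNSC and aNSC and in culture, and the bars lie within 15 points of each other elsewhere.

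Among fresh populations the genes for the Hedgehog receptors had their highest means in qNSC and were lower in NB2, with both falls and rises between. Ptch1 (chromosome 13, 63508328 to 63573598, minus strand, build GRCm38), whose product binds the ligand and which is itself a target of the pathway, had log2 values of 5.53, 5.95, 6.09 and 5.98 in qNSC, 4.86, 4.74, 4.91 and 5.28 in aNSC, 3.37, 3.27 and 3.64 in NB1, and 4.11, 4.36 and 4.26 in NB2. No aNSC library reached the lowest qNSC library, no NB1 library reached any aNSC library, and the NB2 libraries lay above those of NB1. Ptch1 was lower in pNSC than in qNSC by a log2 change of -0.54 ± 0.194 (SE; adjusted p = 0.0468), lower in aNSC than in qNSC by -0.94 ± 0.194 (adjusted p = 1.5e-04; -1.06 without qNSC replicate 1), and lower in NPC1 than in aNSC by -1.09 ± 0.194 (adjusted p = 3.9e-04). It fell again from NPC2 to NB1 by -0.98 ± 0.224 (adjusted p = 0.0059) and then rose from NB1 to NB2 by 0.82 ± 0.224 (adjusted p = 0.0088), the only called rise of that step. The small step from qNSC to pNSC lost its call without any 1 of 6 libraries, qNSC replicates 2 to 4 and pNSC replicates 1 to 3 (adjusted p from 0.0661 to 0.147). Between pNSC and aNSC (-0.40, adjusted p = 0.0882) Ptch1 did not pass. Nor did its higher mean in NPC2 (4.33, 4.42 and 4.48) than in NPC1 (3.82, 3.42, 4.005 and 4.20) pass (adjusted p = 0.289). It was 3.13-fold lower in NB2 than in qNSC (adjusted p = 1.5e-07).

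Smo (chromosome 6, 29735503 to 29761365, plus strand), which encodes the receptor that enters the cilium and starts the intracellular signal, stood at 6.75, 6.47, 6.61 and 6.37 in qNSC, 6.05, 6.18, 5.88 and 6.29 in aNSC, 4.27, 4.81, 5.56 and 5.68 in NPC1, 6.16, 5.54 and 5.78 in NPC2, 4.59, 4.74 and 3.84 in NB1, and 3.42, 3.83 and 4.11 in NB2. The NPC1 libraries spread widely and overlapped those of NPC2, and all NB1 and NB2 libraries lay below all NPC2 libraries. Smo fell from aNSC to NPC1 by -1.02 ± 0.255 (adjusted p = 0.0081; -0.75 and adjusted p = 0.0567 without NPC1 replicate 1) and from NPC2 to NB1 by -1.43 ± 0.295 (adjusted p = 0.0024). From NPC1 to NPC2 its log2 change was 0.75 (adjusted p = 0.265), and from NB1 to NB2 -0.61 (adjusted p = 0.137). Across the whole sequence it was 6.80-fold lower in NB2 than in qNSC (log2 -2.77, adjusted p = 2.1e-09; -2.70 without qNSC replicate 1). The steps from qNSC to pNSC (-0.58, adjusted p = 0.101) and from pNSC to aNSC (0.13, adjusted p = 0.690) did not pass.

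The 3 GLI genes, for the transcription factors at the end of the pathway, were all called lower in NB2 than in qNSC, yet along different courses. Gli3 (chromosome 13, 15463235 to 15730026, plus strand, build GRCm38), the main repressor, read 7.14, 6.66, 6.54 and 6.85 in qNSC, 5.94, 6.22, 5.76 and 6.17 in pNSC, 4.94, 5.05, 4.59 and 4.60 in aNSC, 2.85, 2.63 and 2.91 in NB1, and 0.55, 2.17 and 1.65 in NB2. These 5 populations did not overlap. Gli3 fell by -1.23 ± 0.308 from pNSC to aNSC (adjusted p = 0.0018), by -1.36 ± 0.355 from NPC2 to NB1 (adjusted p = 0.0163) and by -1.34 ± 0.355 from NB1 to NB2 (adjusted p = 0.0070). The second of these lost its call without any 1 of NPC2 replicates 1 and 3 and NB1 replicates 1 and 2 (adjusted p from 0.0513 to 0.0953), and the last without NB2 replicate 1 (-0.88, adjusted p = 0.0712). From qNSC to pNSC the log2 change was -0.77 (adjusted p = 0.0711), from aNSC to NPC1 -0.53 (adjusted p = 0.286) and from NPC1 to NPC2 -0.11 (adjusted p = 0.968). From qNSC to NB2 the fall was 40.5-fold (log2 -5.34 ± 0.332, adjusted p = 2.5e-13; -5.23 without qNSC replicate 1).

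Gli2 (chromosome 1, 118834132 to 119053619, minus strand), the main activator, had its only called step from NB1 to NB2. It stood at 4.67, 4.49, 4.28 and 5.31 in qNSC, and 4.86, 4.55, 4.19 and 4.73 in aNSC. The NPC1 values were 3.12, 3.54, 3.44 and 4.40, and those of NPC2 4.05, 3.87 and 3.80. Gli2 then read 3.16, 2.51 and 1.82 in NB1, and -1.24, -3.00 and 1.499 in NB2. All NB1 libraries lay below all NPC2 libraries. The qNSC and aNSC libraries overlapped, and the NB2 libraries lay below those of NB1 and far apart. The log2 change between qNSC and aNSC was -0.11 ± 0.570 (SE; adjusted p = 0.887), and the steps to pNSC (-0.47), to aNSC (0.37), to NPC1 (-0.96), to NPC2 (0.28) and to NB1 (-1.41) did not pass either. From NB1 to NB2 Gli2 fell by -3.41 ± 0.658 (adjusted p = 3.7e-04), and it was 48.6-fold lower in NB2 than in qNSC (log2 -5.60, adjusted p = 1.2e-08). Single NB2 libraries moved both values: without NB2 replicate 2 they were -2.37 and -4.56 on the log2 scale, and without NB2 replicate 3 -4.62 and -6.81.

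Gli1 (chromosome 10, 127329882 to 127341974, minus strand), the pathway's usual target gene, was highest in aNSC. It read 0.29, 2.34, 2.05 and 2.27 in qNSC, 2.41, 1.84, 1.84 and 3.16 in pNSC, 2.56, 4.21, 3.66 and 4.12 in aNSC, -0.60, 0.39, 1.63 and 2.22 in NPC1, 0.08, 0.45 and 1.45 in NPC2, -0.71, -1.61 and -1.93 in NB1, and -2.83, -1.25 and -4.79 in NB2, the last at that library's floor. Every aNSC library lay above every qNSC and NPC1 library. Gli1 was 3.73-fold higher in aNSC than in qNSC (adjusted p = 0.0273), a call lost without qNSC replicate 1 (log2 1.42, adjusted p = 0.108), without aNSC replicate 2 (adjusted p = 0.0725) and without aNSC replicate 4 (adjusted p = 0.0684). It was 6.64-fold lower in NPC1 than in aNSC (log2 -2.73 ± 0.735, adjusted p = 0.0138), lost without NPC1 replicate 1 (log2 -2.23, adjusted p = 0.0762) and without aNSC replicate 2 (adjusted p = 0.0506). Between NPC2 and NB1 (-2.08, adjusted p = 0.152) and between NB1 and NB2 (-1.54, adjusted p = 0.196) it did not pass, and in NB2 it was 26.0-fold lower than in qNSC (log2 -4.70, adjusted p = 1.1e-05). That change was -3.78 without NB2 replicate 3, the library at the floor, and -5.55 without NB2 replicate 2. The steps from qNSC to pNSC (0.57, adjusted p = 0.606), from pNSC to aNSC (1.33, adjusted p = 0.140) and from NPC1 to NPC2 (-0.25, adjusted p = 0.972) did not pass.

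**Figure D4:**
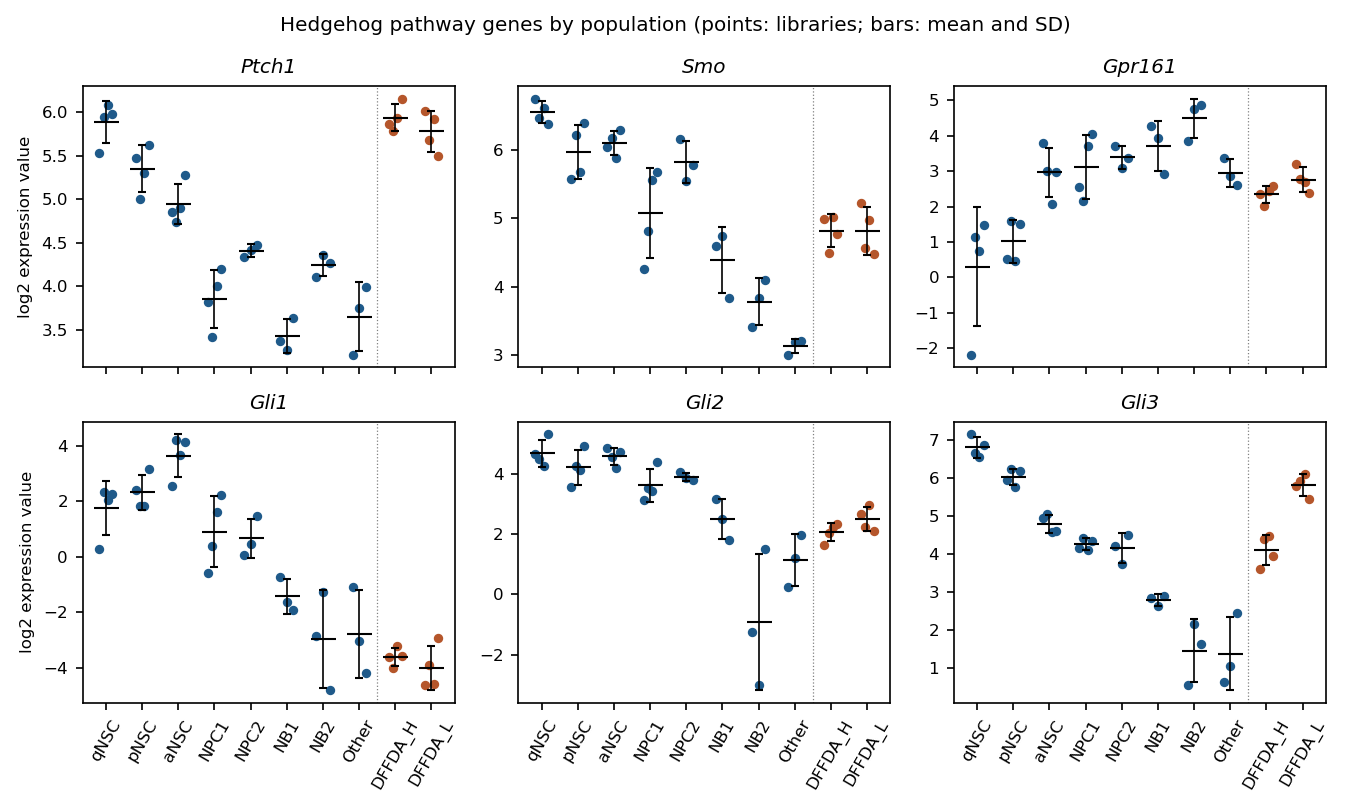
Log2 expression value of Ptch1, Smo, Gpr161, Gli1, Gli2 and Gli3 in each library (points) with the population mean and SD (bars), fresh populations left of the dotted line and neurosphere cells right of it. The axes differ between panels and do not start at 0. Gli3 falls from near 6.80 in qNSC to 1.46 in NB2, Gpr161 rises from 0.30 to 4.49, and Gli1 has its highest mean, 3.64, in aNSC.

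Gpr161 (chromosome 1, 165295789 to 165326745, plus strand), which encodes the ciliary receptor that restrains the pathway, was higher in NB2 than in qNSC, where the GLI genes were lower. Its log2 values were -2.18 (the floor), 1.15, 0.75 and 1.48 in qNSC, 0.53, 1.59, 0.45 and 1.51 in pNSC, 3.79, 3.02, 2.08 and 2.98 in aNSC, and 3.85, 4.76 and 4.86 in NB2. All aNSC libraries lay above all qNSC and pNSC libraries, and the NB2 libraries above all of aNSC. It rose from pNSC to aNSC by 1.95 ± 0.579 (adjusted p = 0.0072) and by no called step after that, with log2 changes of 0.15 to NPC1, 0.27 to NPC2, 0.32 to NB1 and 0.79 to NB2. Between qNSC and NB2 the rise was 18.2-fold (log2 4.19, adjusted p = 1.8e-06), and 3.36 on the log2 scale without qNSC replicate 1 (adjusted p = 1.1e-06). The change from qNSC to aNSC was 2.67 (adjusted p = 2.7e-04), or 1.84 without qNSC replicate 1 (adjusted p = 9.9e-04). From qNSC to pNSC it was 0.72 (adjusted p = 0.387), or -0.11 without that library.

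The other membrane genes moved less. Arl13b, for a small GTPase of the ciliary membrane, read 2.12, 4.03, 4.78 and 4.64 in qNSC and 5.07, 4.79 and 4.61 in NB2, and these overlapped. Its call as higher in NB2 (0.93, adjusted p = 0.0296) was lost without qNSC replicate 1 (0.34, adjusted p = 0.172), which held the lowest value, and without NB2 replicate 1 (adjusted p = 0.102) or 2 (adjusted p = 0.0584). Between successive named populations its log2 change lay between 0.00 and 0.51 and passed at none. Tulp3, for the adaptor that brings receptors such as GPR161 into the cilium, was lower in aNSC than in qNSC by -1.09 ± 0.291 (adjusted p = 0.0020) and lower in NB2 by -1.24 ± 0.315 (adjusted p = 0.0012), though qNSC replicate 2, at 3.08, lay among the aNSC libraries (3.02 to 3.10).

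The IFT-B genes were called in both directions. Of 11, 3 were higher (Ift88, Ift52, Ift74) and 3 lower (Ift57, Ift22, Ift27) in aNSC than in qNSC, and 2 were higher (Ift46, Ift20) and 5 lower (Ift57, Ift22, Ift74, Ift80, Ift27) in NB2 than in qNSC, where 62.3% and 68.3% of all genes were called. Ift88, a core subunit without which cilia do not form, read 2.89, 2.66, 2.11 and 2.77 in qNSC, 3.36, 3.14, 2.96 and 1.96 in pNSC, 3.83, 3.69, 3.85 and 3.73 in aNSC, and 3.17, 3.23 and 3.04 in NB2. All aNSC libraries were above all qNSC, pNSC and NB2 libraries. It rose 1.90-fold from pNSC to aNSC (log2 0.92 ± 0.259, adjusted p = 0.0046) and was 2.25-fold higher in aNSC than in qNSC (adjusted p = 3.4e-04). Later steps did not pass (-0.20 to NPC1, -0.19 to NPC2, -0.34 to NB1 and 0.09 to NB2), nor did NB2 against qNSC (0.54, adjusted p = 0.0911).

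Ift57, for a peripheral IFT-B subunit, had a lower mean at each of the 6 steps, and 3 of these falls were called. Its values were 6.41, 6.70, 6.79 and 6.70 in qNSC, 5.75, 6.03, 6.00 and 5.91 in aNSC, 5.03, 5.42, 5.25 and 5.27 in NPC1, 4.80, 4.87 and 4.93 in NB1, and 4.31, 3.96 and 4.29 in NB2, with no overlap between these populations. It fell by -0.43 from pNSC to aNSC (adjusted p = 0.0154), by -0.68 from aNSC to NPC1 (adjusted p = 0.0020) and by -0.68 from NB1 to NB2 (adjusted p = 0.0034). The first of these calls was lost without pNSC replicate 3 (-0.37, adjusted p = 0.0512) and without aNSC replicate 1 (-0.37, adjusted p = 0.0563). From qNSC to NB2 the fall was 5.50-fold (log2 -2.46 ± 0.154, adjusted p = 2.8e-13), the largest change among the IFT-A and IFT-B genes. Ift22, for a small GTPase of the complex, fell by -1.49 over the same span (adjusted p = 2.6e-08), and Ift46, a subunit that bridges cargo, rose by 0.96 (adjusted p = 1.1e-05). Ift27, another small GTPase of the complex, was lower in pNSC than in qNSC by -0.61 (adjusted p = 0.0097), with qNSC replicate 1 at 7.25 and the other qNSC libraries at 6.45 to 6.57. Without that library the change was -0.43 (adjusted p = 0.0514). Ift20, which also works at the Golgi, Ift27 and Ift46 rose from aNSC to NPC1 by 0.64, 0.50 and 0.49 (adjusted p = 0.0293, 0.0481 and 0.0309), and leaving out aNSC replicate 2, NPC1 replicate 1 or NPC1 replicate 2 ended all 3 calls (adjusted p from 0.0664 to 0.167). That of Ift20 was also lost without aNSC replicate 3, and those of Ift27 and Ift46 without aNSC replicate 4 or NPC1 replicate 3. Against qNSC, the call of Ift27 in aNSC was lost without qNSC replicate 1, aNSC replicate 2 or aNSC replicate 4 (adjusted p from 0.0570 to 0.115), and that of Ift20 in NB2 without NB2 replicate 1 (adjusted p = 0.0901).

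Among the IFT-A genes, for the retrograde complex, Wdr35 read 3.88, 5.60, 5.42 and 5.401 in qNSC, 6.44, 6.99, 6.55 and 6.62 in aNSC, 6.12, 6.18 and 5.75 in NB1, and 4.88, 5.16 and 5.11 in NB2. All aNSC libraries lay above those of qNSC, and the NB2 libraries lay below those of NB1 and within the spread of qNSC. It was 2.97-fold higher in aNSC than in qNSC (adjusted p = 2.4e-05; log2 1.57, or 1.17 without qNSC replicate 1) and fell by -0.97 ± 0.322 from NB1 to NB2 (adjusted p = 0.0292). The latter call was lost without any 1 of 5 libraries, all but NB1 replicate 3 (adjusted p from 0.0559 to 0.0929). The smaller rise from qNSC to pNSC (0.80, adjusted p = 0.0395) was lost without qNSC replicate 1 (0.41, adjusted p = 0.1995) and without pNSC replicate 1 or 2, and that from pNSC to aNSC (0.77, adjusted p = 0.0253) without pNSC replicate 3 (0.55, adjusted p = 0.119), pNSC replicate 4 or aNSC replicate 2. Ttc21b, for the IFT-A subunit IFT139, was 0.86 higher in aNSC (adjusted p = 0.0345) and 0.92 higher in NB2 (adjusted p = 0.0346) than in qNSC, and neither call held without qNSC replicate 1 (adjusted p = 0.148 and 0.131) or 3 (adjusted p = 0.1204 and 0.1098). The call in aNSC was lost without aNSC replicate 2 or 4 too, and that in NB2 without NB2 replicate 1 or 3. Ift122, for a core IFT-A subunit, was lower in NB2 than in qNSC by -0.90 (adjusted p = 0.0042).

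For the retrograde motor, Dync2h1, the heavy chain of dynein-2, passed in none of the 10 comparisons in the main limma fit. There its unadjusted p was under 0.05 only in culture (0.0282). Over the alternative fits and left-out libraries, its lowest limma adjusted p was 0.0014 between NPC2 and NB1 and 0.0031 between NB1 and NB2. It was 0.0084 between aNSC and NPC1, 0.0376 between qNSC and NB2 and 0.0074 in culture, and above 0.05 in the other comparisons. Its values were 6.49, 5.73, 5.56 and 5.60 in qNSC and 5.22, 5.61 and 5.27 in NB2, and its log2 changes between successive named populations lay between -0.51 (NPC2 to NB1) and 0.38 (NB1 to NB2). Against qNSC the change was -0.48 ± 0.239 in NB2 (adjusted p = 0.0786) and -0.10 in aNSC. Dync2li1, for its light intermediate chain, was lower than in qNSC by -0.57 in aNSC (adjusted p = 0.0128) and by -1.07 in NB2 (adjusted p = 7.8e-05), with no overlap of libraries in either comparison.

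Within the BBSome, whose subunits form 1 complex, levels diverged. Bbs2 read 5.64, 5.70, 6.37 and 6.12 in qNSC, 4.12, 4.79, 4.79 and 4.84 in aNSC, and 2.89, 3.11 and 3.27 in NB2, with no overlap. It fell by -1.001 ± 0.216 from pNSC to aNSC (adjusted p = 4.4e-04) and was 7.31-fold lower in NB2 than in qNSC (log2 -2.87 ± 0.233, adjusted p = 4.5e-11). Bbs4, an adaptor subunit, went down and up again: 6.43, 5.62, 5.89 and 5.93 in qNSC, 4.71, 4.79, 4.85 and 5.06 in aNSC, 4.42, 4.90 and 4.40 in NPC2, 5.56, 5.62 and 5.32 in NB1, and 6.00, 5.68 and 5.83 in NB2. The qNSC and NB2 libraries overlapped, and the aNSC and NPC2 libraries lay below both. Bbs4 fell from pNSC to aNSC by -0.71 ± 0.170 (adjusted p = 0.0013) and was lower in aNSC than in qNSC by -1.11 (adjusted p = 3.0e-06). It rose from NPC2 to NB1 by 0.92 ± 0.197 (adjusted p = 0.0034), and between qNSC and NB2 the difference was -0.13 ± 0.184 (adjusted p = 0.551). Among the named populations Bbs7 was highest in aNSC (5.26, 5.48, 5.05 and 5.22) and lowest in NB2 (3.36, 3.36 and 3.45), where it fell by -1.18 ± 0.190 from NB1 (adjusted p = 4.2e-05). Bbs5 fell from qNSC to NB2 by -1.32 (adjusted p = 6.0e-04), Bbs9 rose by 0.88 (adjusted p = 8.7e-04), and the change of Bbs1 was 0.06 (adjusted p = 0.898).

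The genes of the chaperonin that assembles the BBSome spread widely among the qNSC libraries. Bbs12 read -2.18 (the floor), 2.06, -0.39 and 1.84 in qNSC, 1.92, 2.21, 2.75 and 1.13 in pNSC, 3.16, 3.43, 3.54 and 3.29 in aNSC, and 0.36, 0.79 and 1.16 in NB2. The qNSC libraries spanned those of NB2 and reached into those of pNSC, and all lay below the aNSC libraries. Bbs12 was 8.12-fold higher in aNSC than in qNSC (log2 3.02, adjusted p = 5.4e-05), or 2.19 on the log2 scale without qNSC replicate 1 (adjusted p = 9.7e-05). Its rise from qNSC to pNSC (1.67, adjusted p = 0.0370) was 0.83 (adjusted p = 0.181) without that library and lost its call without qNSC replicate 3 or any 1 of pNSC replicates 1 to 3 too (adjusted p from 0.0725 to 0.103). Bbs10 had 4.20, 1.39, 3.11 and 2.49 in qNSC, -0.99, 1.77, 2.06 and 1.55 in aNSC, and 0.74, 1.82 and 0.81 in NB2, and each pair overlapped. It was lower than in qNSC by -1.70 in aNSC (adjusted p = 0.0107) and by -1.67 in NB2 (adjusted p = 0.0175), with neither call left without qNSC replicate 1 (adjusted p = 0.0594 and 0.0775). The first was also lost without aNSC replicate 1 (-1.005, adjusted p = 0.0849), and the second without NB2 replicate 1 (adjusted p = 0.0673) or 3 (adjusted p = 0.0617).

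**Figure D5:**
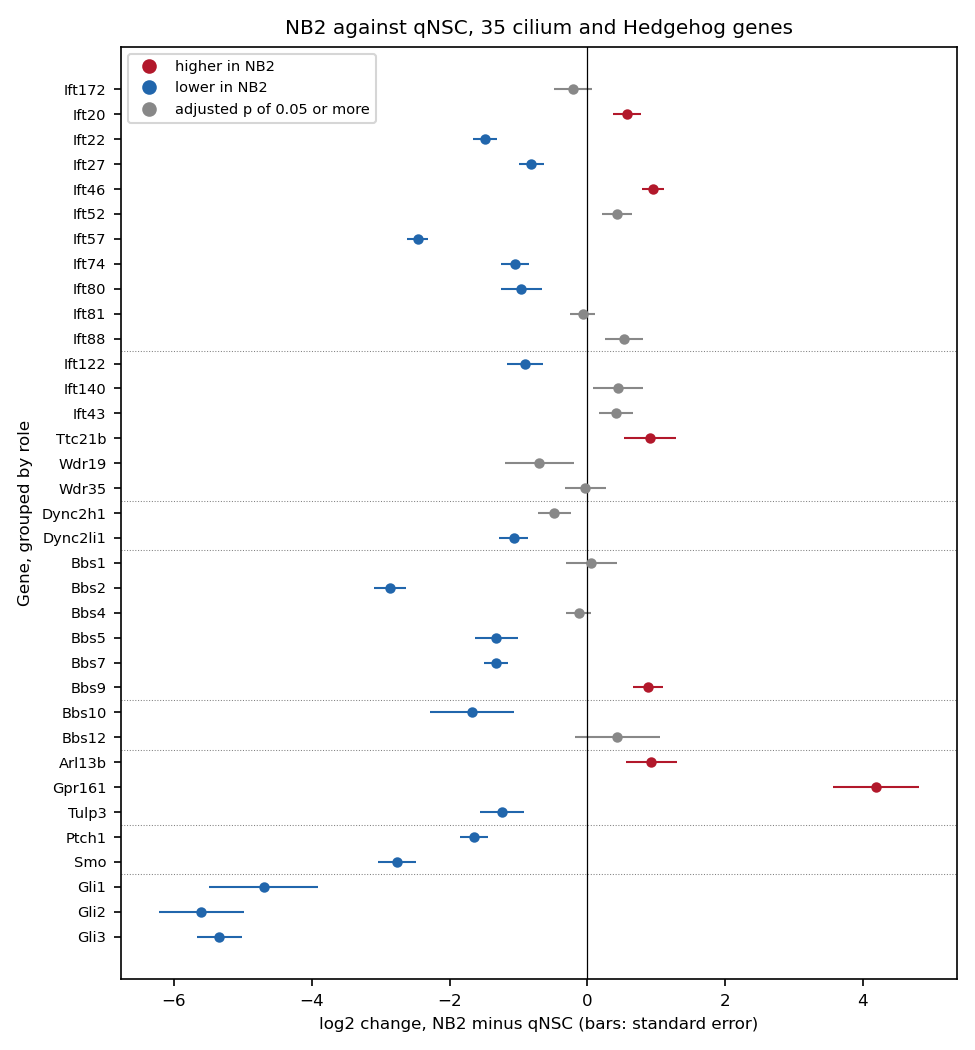
Log2 change of each gene, NB2 minus qNSC, with its standard error as bars, grouped by role from IFT-B at the top to the GLI factors at the bottom. Red points (6 genes) and blue points (17 genes) passed adjusted p under 0.05, and the GLI factors and Gpr161 lie farthest from 0, at -5.60 to -4.70 and at 4.19.

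Markers of other cells moved between qNSC and NB2 too, and their part in these differences was not tested. The counts called are read beside the 68.3% of all genes called there. Of 19 ependymal (motile cilium) markers tested, 10 were lower and 3 higher in NB2 (68.4% called). The 21 in the table summed to between 214 and 275 in qNSC, 88.1 and 112 in aNSC, and 79.6 and 86.6 in NB2, with no marker at the floor in every library of any of the 3. The ependymal regulator Foxj1 had a mean log2 value of 3.55 in qNSC, 1.58 in aNSC and -1.47 in NB2. The 3 markers called higher in NB2 were Dnah11 (log2 change 4.05), Hydin (3.305) and Spag17 (1.55). The summed level of 6 mural markers was 120 to 163 in qNSC and 6.79 to 15.4 in NB2. Only Pdgfrb of the 6 was called lower, from a mean log2 value of 7.11 to 0.06, and the median change of the list was 0.22. That of 8 oligodendrocyte markers was 429 to 718 and 212 to 228 (4 of 6 tested lower, 1 higher, Cldn11 at the floor in every NB2 library), and that of 8 mature neuron markers 34.5 to 167 and 361 to 419 (5 of 7 tested higher, 1 lower, Slc17a7 at the floor in every NB2 library). The 10 microglia markers summed to 336 to 745 and 237 to 303 (1 higher, 3 lower), the 8 endothelial ones to 5.90 to 11.2 and 7.74 to 11.9, the 6 oligodendrocyte precursor ones to 6.08 to 21.2 and 6.04 to 17.0 (1 of 5 tested lower), and the 5 red cell ones to 6.84 to 32.5 and 44.2 to 100.4 (2 higher).

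Genes of the same machinery that the symbol rule leaves out were called in both directions. Their shares called between qNSC and NB2 are read beside the 68.3% of all genes called there. Of 21 further IFT and BBSome genes, 5 were higher and 9 lower in NB2 than in qNSC (66.7% called, median log2 change -0.66), with the BBSome subunit gene Ttc8 at -2.11, the BBSome GTPase gene Arl6 at -1.41 and the kinesin-2 motor gene Kif3a at 0.94. Of 26 transition zone and basal body genes, 9 were higher and 12 lower (80.8% called, median -0.19). Those lower included Tctn2 (-2.29) and Cc2d2a (-1.61), whose products build the gate at the base of the cilium. All 4 ciliary membrane receptor and channel genes tested were lower, with Gpr19 at -0.78, the polycystin genes Pkd1 at -0.60 and Pkd2 at -0.71. Of 9 cilium disassembly genes, 7 were higher and 2 lower. The kinase gene Aurka rose by 3.87, and Nde1 and Nedd9 fell by 2.46 and 2.96. Several of these also act in mitosis, and all 12 S phase and mitosis genes were higher in NB2 than in qNSC. Among the 12 were Ccnb1 (3.68), Tpx2 (3.17) and Cdk1 (2.53), named for their small p and not for the size of change. Of the 6 RFX genes 1 was higher and 4 lower.

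Among 18 other Hedgehog pathway genes tested, 7 were higher and 4 lower in NB2 than in qNSC. That was 61.1% called, where 68.3% of all genes were. In aNSC 11 were higher and 2 lower than in qNSC, or 72.2% called, where 62.3% of all genes were. The co-receptor gene Gas1 rose from a mean log2 value of 7.33 ± 0.205 (SD, n = 4) in qNSC to 8.37 ± 0.175 (SD, n = 4) in aNSC (adjusted p = 3.7e-06) and then fell to 3.96 ± 0.178 (SD, n = 3) in NB2 (-3.36 against qNSC, adjusted p = 8.6e-15). Evc, for a ciliary protein that relays the SMO signal, rose from 5.13 ± 0.491 in qNSC to 9.12 ± 0.0273 in NB2 (3.99, adjusted p = 1.0e-12), and the kinase gene Gsk3b rose by 1.47 (adjusted p = 1.1e-07). In aNSC against qNSC the lowest p-values were those of Evc (1.74), Gas1 (1.05) and Spop (0.77). The ligand genes Shh and Dhh were below the filter in all 8 fresh populations and were not tested there.

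In the population labelled Other, transducers of the Hedgehog signal were low and the IFT genes were split. Set against the mean of the 7 named populations, 8 of the 35 genes were higher and 15 lower, 65.7% in all, where 54.3% of all genes were called. The largest falls were those of Gli1 (-3.47; -1.08, -3.03 and -4.19 in the 3 libraries, the last at the floor; -4.31 without Other replicate 1 and -2.76 without Other replicate 3), Gli3 (-2.94; 0.63, 1.05 and 2.46) and Smo (-2.25; 3.01, 3.19 and 3.21). The Smo libraries lay below every library of the named populations. Gli2 (-2.10) and Ptch1 (-0.94) were lower too. The low GLI values were not particular to Other. In NB2, Gli1 read -2.83, -1.25 and -4.79, and Gli3 read 0.55, 2.17 and 1.65. Gli1 and Gli2 had their lowest fresh mean in NB2 (-2.96 and -0.92), and Ptch1 had its lowest in NB1 (3.43). The largest rises were those of the IFT-A genes Ift140 (1.31; 5.71, 7.03 and 6.83) and Ift43 (1.198) and of Ift20 (1.23; 5.89, 6.29 and 6.95). The IFT-A genes Wdr35 (-1.66), Wdr19 (-1.62) and Ift122 (-1.47) and the BBSome gene Bbs1 (-1.93) were lower. The call of Wdr19 rested on Other replicate 3 (-1.07 and adjusted p = 0.0537 without it), that of Arl13b (0.82, adjusted p = 0.0231) was lost without any 1 of the 3 Other libraries, that of Ift52 without Other replicate 1 or 2, and that of Dync2li1 without Other replicate 1 or 3. The call of Ift27 was lost without any 1 of 16 libraries, at adjusted p from 0.0513 to 0.0574 for 14 libraries of the named populations and at 0.111 and 0.288 without Other replicates 2 and 3. Bbs4 (0.31, adjusted p = 0.0793), Dync2h1 (-0.23), Gpr161 (0.24) and Ift88 (-0.50, adjusted p = 0.0607) did not pass. Markers of several cell types stood high in Other: all 8 endothelial and all 6 mural markers were higher than in the named populations, with sums of 711 to 2111 and 143 to 1887, and 8 of 10 microglia markers were higher, with sums of 670 to 1159. So were 7 of 8 neuroblast markers, with sums of 6354 to 9139, near those of NB1 and NB2, and 4 of 5 red cell markers, with sums of 44.6 to 473, while all 12 S phase and mitosis genes were lower, with sums of 1146 to 1268. Their part in these differences was not tested.

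In neurosphere cells, Gli3 differed most with dye level. Its log2 values were 3.61, 4.40, 4.47 and 3.95 in DFFDA_H and 5.79, 5.92, 6.10 and 5.44 in DFFDA_L, without overlap, and it was 3.26-fold lower in DFFDA_H (log2 -1.70 ± 0.191, adjusted p = 2.0e-05). Of 34 genes tested, 5 were higher and 2 lower in DFFDA_H (20.6%), where 43.8% of all genes were called. The higher ones were Bbs10 (0.86), Dync2li1 (0.82), Bbs12 (0.53), Ift22 (0.45) and Ift46 (0.42), and the other lower one was Tulp3 (-0.26, adjusted p = 0.0385). Bbs10 read 2.58, 2.53, 1.85 and 2.04 in DFFDA_H and 1.33, 1.75, 1.49 and 0.99 in DFFDA_L, and Dync2li1 read 4.50, 4.58, 4.39 and 4.28 against 3.72, 3.42, 3.45 and 3.89. The groups did not overlap for any of the 7. How many of all called genes part in this way was not counted, so the 7 cannot be read against such a share. The call of Tulp3 was lost without any 1 of DFFDA_H replicates 1 to 3 and DFFDA_L replicates 1 to 3 (adjusted p from 0.0621 to 0.118), and that of Bbs12 without DFFDA_H replicate 1 or 2 or DFFDA_L replicate 3 or 4 (adjusted p from 0.0524 to 0.0924). Smo (0.005 ± 0.174), Ptch1 (0.16), Gli2 (-0.43, adjusted p = 0.160), Gpr161 (-0.42, adjusted p = 0.128), Ift88 (-0.48, adjusted p = 0.0874), Dync2h1 (-0.34, adjusted p = 0.0611), Bbs4 (0.26) and Arl13b (0.13) did not pass. Gli1 lay between -4.60 and -2.90 in all 8 libraries, below the filter, and was not tested.

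All 12 S phase and mitosis genes were lower in DFFDA_H (sums of 619 to 683 against 1527 to 1808). Counts called here are read beside the 43.8% of all genes called in culture. The 21 ependymal markers summed to 68.9 to 78.0 in DFFDA_H and 46.2 to 52.4 in DFFDA_L (2 of 8 tested higher, 3 lower, Cdhr4 at the floor in every DFFDA_H library), and their part was not tested. Of 21 further IFT and BBSome genes 5 were higher in DFFDA_H and none lower (23.8% called), with Ttc30b at 1.15, Mkks at 0.40 and Hspb11 at 0.62. Of 18 other Hedgehog genes 1 was higher and 5 lower (33.3% called). The co-receptor gene Cdon stood at -0.80, Kif7, for the ciliary kinesin that organizes GLI proteins, at -1.08, and the ligand gene Shh at 1.64. Of the 6 RFX genes 3 were lower (50% called), Rfx7 (-0.64), Rfx4 (-0.61) and Rfx3 (-0.43).

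Cultured and fresh libraries differed for some genes without overlap. Every culture library lay below every fresh library for Bbs2, Bbs4, Ift140, Ift172 and Ift81, and above every fresh library for Tulp3 (5.00 to 5.43 in culture). The share of all genes that part in this way was not counted, so these genes cannot be read against it. Culture cannot be told apart from other differences between the 2 sets of libraries, such as their sorting, so the sets were fitted apart and not tested against each other.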

How the data were processed

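The authors' table holds deposited log2 values of 19909 genes in 36 libraries, and 1770 blank lines in it were dropped. The scale was read from the values: raised as powers of 2, each column adds up to 987637 to 987910, and all columns have nearly the same distribution, as quantile normalization leaves. A change of total RNA per cell cannot be seen in such values. Per the submitters' processing notes, HISAT2, featureCounts and limma were used, with FastQC, Trimmomatic and cutadapt, on build mm10 (GRCm38). Their versions, and how reads of overlapping genes were counted, are not given there.

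A mean per population was fitted with limma 3.58.1 (R 4.3.3; trend and robust settings) to the 28 fresh libraries and, apart, to the 8 neurosphere libraries. The 17788 and 15956 genes that reached 0 on the log2 scale in 3 or more libraries of 1 population were tested. P-values were adjusted over all of them (Benjamini-Hochberg) and called under 0.05. The script was tested on simulated data. Genes named are the 3 largest called changes each way in each comparison, plus Ift88, Dync2h1, Bbs4, Arl13b, Gpr161, Smo, Ptch1, Gli1, Gli2 and Gli3, and from each other list the 3 smallest p, of which 1 gene is not reported here. Genes named beyond this rule (such as Ift57, Ift22, Tulp3, Bbs5, Bbs9 and Foxj1) were chosen after their values were seen. Members and lists were chosen with earlier results of these data known. Further lists hold other IFT and BBSome, transition zone and basal body, Hedgehog pathway, RFX, cilium disassembly, ciliary membrane receptor and channel, and S phase and mitosis genes, and markers of 10 cell types.

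Coordinates and exon overlaps come from GENCODE release M21, matched by Ensembl identifier, and promoters from RefSeq (GRCm38.p6). The 7 alternatives, besides leaving out each library, were no filter, a pseudocount of 1, trimmed-mean centring, other libraries in the fit, library weights, no trend or robust settings, and a replicate block.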

Additional observations from a re-analysis of the deposited data

Results flagged for a closer look

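In 16 of 210 sets of 4 libraries of 1 gene and population, the highest or lowest library lay apart from the rest by Dixon's criterion, which chance meets in about 5% of such sets. In qNSC replicate 1 the log2 values of Gli1 (0.29), Ift122 (5.45), Ift43 (4.03), Wdr19 (1.90) and Wdr35 (3.88) lay below and that of Ift27 (7.25) above the other qNSC libraries. In aNSC replicate 1, Bbs10 (-0.995) and Bbs2 (4.12) were low and Ift22 (6.02) was high. Ttc21b was high in NPC1 replicate 4 (4.20). In DFFDA_H replicate 1, Arl13b (4.34), Bbs2 (2.33), Dync2h1 (5.03) and Ift57 (4.80) were high, Ift27 was low in DFFDA_H replicate 4 (6.06), and Ift122 was low in DFFDA_L replicate 1 (3.66). Wdr19 was called lower in NB2 than in qNSC only without qNSC replicate 1 (-1.41, adjusted p = 8.3e-04, against -0.70 and adjusted p = 0.216 with it).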

How the results depend on the processing

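Calls over the 35 genes moved by over 1.5 times with library weights, which down-weight libraries that fit less well. They also moved so with other libraries in the fit and when single libraries were left out. With library weights they were 1 between qNSC and pNSC (from 4), 12 between aNSC and NPC1 (from 7), 5 between NPC1 and NPC2 (from 0), 12 between NPC2 and NB1 (from 4), 18 between NB1 and NB2 (from 9) and 11 between DFFDA_H and DFFDA_L (from 7). With other libraries in the fit they were 1 between qNSC and pNSC, 13 between aNSC and NPC1 and 4 in culture. The cause was not tested. Leaving out each replicate gave 1 to 5 between qNSC and pNSC and 2 to 7 between aNSC and NPC1. The number of X-box genes was 2 with no mismatch (from 6). Calls over all genes moved too: with library weights to 2234 between qNSC and pNSC (from 3959), 5983 between aNSC and NPC1 (from 2262), 2180 between NPC1 and NPC2 (from 239), 6234 between NPC2 and NB1 (from 1364) and 9015 between NB1 and NB2 (from 4371), and with other libraries in the fit to 1511, 5080, 578, 2888 and 6690, and 3234 in culture (from 6995). They were 2432 between qNSC and pNSC without pNSC replicate 1 and 1337 between aNSC and NPC1 without NPC1 replicate 1. Between NPC1 and NPC2 they were 80 to 125 without any 1 library but NPC1 replicate 1, and between NPC2 and NB1 763 to 885 without NPC2 replicate 2 or 3 or NB1 replicate 1 or 2. A pseudocount of 1 moved the median change of all genes from 0.30 to 0.12 between qNSC and NB2 and from 0.19 to 0.04 between qNSC and aNSC, and left 23 and 19 of the 35 genes called there.

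No called change turned its direction. Of the changes that were not called, with library weights Arl13b turned to -0.23 between qNSC and pNSC, -0.23 between qNSC and aNSC and 0.01 between NPC1 and NPC2, Dync2h1 to 0.076 between qNSC and aNSC, Gli3 to 0.081 and Gpr161 to -0.004 between NPC1 and NPC2, and Gpr161 to -0.057 in Other. With the replicate block Arl13b and Gli1 turned to 0.034 and 0.02 between NPC1 and NPC2. Leaving out single replicates gave, between qNSC and pNSC, -0.34 to 0.55 for Arl13b, -0.29 to 0.086 for Dync2h1 and -0.11 to 1.11 for Gpr161. Between pNSC and aNSC it gave -0.091 to 0.099 for Arl13b and -0.066 to 0.197 for Dync2h1. Between qNSC and aNSC it gave -0.33 to 0.56 for Arl13b, -0.19 to 0.12 for Dync2h1 and -0.24 to 0.10 for Gli2. Between aNSC and NPC1 it gave -0.16 to 0.47 for Gpr161 and -0.036 to 0.21 for Arl13b. Between NPC1 and NPC2 it gave -0.12 to 0.13 for Arl13b, -0.051 to 0.59 for Gpr161, -0.12 to 0.23 for Dync2h1, -0.75 to 0.19 for Gli1 and -0.29 to 0.10 for Gli3. It gave -0.10 to 0.17 for Arl13b between NPC2 and NB1, -0.24 to 0.026 for Bbs4 between qNSC and NB2, and -0.11 to 0.14 for Smo in culture.

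The labels give populations the same replicate numbers, but libraries with the same number did not deviate together in every pair (correlations from -0.13 to 0.18), so the numbers were not taken as pairs. With the replicate block, 4, 10, 7, 0, 4 and 9 of the 35 genes were called over the successive steps from qNSC to NB2. It gave 19 between qNSC and aNSC, 24 between qNSC and NB2, 22 in Other and 6 in culture. Genes near the floor, such as Gli1 in NB2, are limited by depth, for which the values carry no total.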
